A study of Mus musculus with 20 samples.

Results

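The 8 genes described here, of 35204 in the deposited gene table, encode secreted products of the Paneth cell: Lyz1, Ang4, Itln1, Mptx2, Mmp7, Defa24, Defa30 and Defa17. They were taken by name, as known granule proteins of this cell, though earlier results of these data had been seen. All 8 were abundant enough to be tested. Their RNA was measured in the terminal ileum of 20 female C57Bl6 mice, which the methods give as 7-week-old, with 5 mice in each of 4 groups. CD mice were fed a control diet made of defined amino acids for 3 weeks, and TDD mice the same kind of diet with no tryptophan added. Both of these groups were specific pathogen-free (SPF) and received no antibiotics. CD+ABX and TDD+ABX mice were fed the same diets and were given ampicillin, vancomycin, gentamycin, metronidazole and neomycin together, in drinking water sweetened with sucrose. Each library came from poly-A RNA of a whole piece of ileum, so it holds crypts, villi, lamina propria and muscle together. In such tissue, fewer Paneth cells and less RNA per Paneth cell cannot be told apart.

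Paneth cells sit at the base of the small intestinal crypts, beside the stem cells, and release granules of antimicrobial proteins into the crypt lumen. The alpha-defensins, called cryptdins in mice, are short cationic peptides that are made as inactive precursors, and in the mouse Mmp7 (matrilysin, a metalloproteinase) cuts them into their active form. Lyz1 is the Paneth cell lysozyme, which breaks down bacterial peptidoglycan, whereas its neighbour Lyz2 is the lysozyme of macrophages. Ang4 is a ribonuclease of the angiogenin family with bactericidal activity, Itln1 (intelectin) is a lectin that binds microbial sugars and is also made by goblet cells, and Mptx2 is a mucosal pentraxin.

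The 3 defensin members differ by few bases, which sets how well their reads can be told apart. The coding sequences of Defa24, Defa30, Defa17 and Defa36, each 279 bases in 2 coding exons on the plus strand of chromosome 8 (GENCODE annotation of GRCm38), are shown for that reason. Capitals mark the bases that differ from Defa24. Defa36 is not a member and is shown because its share of the alpha-defensin counts, like that of Defa30, was larger on TDD.
Defa24: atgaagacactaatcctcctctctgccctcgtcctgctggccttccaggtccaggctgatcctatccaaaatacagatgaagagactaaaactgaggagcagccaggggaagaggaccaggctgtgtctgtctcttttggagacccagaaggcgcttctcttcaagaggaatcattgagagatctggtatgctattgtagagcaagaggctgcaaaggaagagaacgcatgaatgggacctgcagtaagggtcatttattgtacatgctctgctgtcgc
Defa30: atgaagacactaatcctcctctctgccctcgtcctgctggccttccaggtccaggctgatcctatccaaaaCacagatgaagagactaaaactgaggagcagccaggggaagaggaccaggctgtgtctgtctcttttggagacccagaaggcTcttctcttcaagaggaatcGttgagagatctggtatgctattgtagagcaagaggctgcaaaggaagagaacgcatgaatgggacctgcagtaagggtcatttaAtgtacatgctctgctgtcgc
Defa17: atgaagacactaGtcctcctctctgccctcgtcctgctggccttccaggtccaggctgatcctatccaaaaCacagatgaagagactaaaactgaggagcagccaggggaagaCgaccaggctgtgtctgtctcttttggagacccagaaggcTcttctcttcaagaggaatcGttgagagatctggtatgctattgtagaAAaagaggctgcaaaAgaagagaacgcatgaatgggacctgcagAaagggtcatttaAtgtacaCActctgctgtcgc
Defa36: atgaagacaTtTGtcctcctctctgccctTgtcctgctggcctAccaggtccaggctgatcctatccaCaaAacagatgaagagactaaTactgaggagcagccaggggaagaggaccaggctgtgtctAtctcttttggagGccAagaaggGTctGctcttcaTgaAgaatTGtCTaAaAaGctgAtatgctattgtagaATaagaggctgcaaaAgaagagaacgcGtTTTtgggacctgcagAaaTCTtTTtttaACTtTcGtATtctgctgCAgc
Defa30 differed from Defa24 at 4 bases (98.6% identity), Defa17 at 12 (95.7%) and Defa36 at 46 (83.5%). Of all stretches of 31 bases in the annotated transcripts of Defa24, 42.9% occurred in no other gene, against 29.6% for Defa30 and 6.8% for Defa17. Over the 25 alpha-defensin genes tested, the median was 8.20% and 7 genes had no stretch of their own, so that a level given for 1 Defa gene rests in part on how the authors' program divided shared reads. The other members shared less. Mmp7 shared no stretch with another gene, Itln1 shared 3.8% of its stretches with 1 gene, Ang4 13.8% with 4 genes of its family, Mptx2 25.1% with Mptx1 and Lyz1 34.2% with Lyz2.

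The genes lie apart from each other except for the defensins. On GRCm38, Lyz1 (ENSMUSG00000069515.6) spans 117287797 to 117292868 of chromosome 10, and Ang4 (ENSMUSG00000060615.5) 51763878 to 51773590 of chromosome 14. Itln1 (ENSMUSG00000038209.12) spans 171518122 to 171535294 and Mptx2 (ENSMUSG00000079180.4) 173274382 to 173277777 of chromosome 1. Mmp7 (ENSMUSG00000018623.9) spans 7692090 to 7699585 of chromosome 9. Defa30 (ENSMUSG00000074444.4, 21134642 to 21135598), Defa17 (ENSMUSG00000060208.5, 21655780 to 21656735) and Defa24 (ENSMUSG00000064213.5, 21734494 to 21735471) lie on chromosome 8, within the block that holds all 29 alpha-defensin genes of the table.

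Total counts per mouse ranged from 36676963 to 58662617. The 8 members together took 0.836% to 1.89% of them, and the alpha-defensin genes together 1.54% to 3.70%. Scaling factors ran from 0.904 in CD+ABX mouse 5 to 1.15 in CD mouse 2, and no library held the counts of another. Levels of 1 gene are given as CPM, that is counts scaled to the size of the library, and levels of different genes are compared in TPM, which also allow for the length of a transcript. In TPM, averaged over the 20 mice, the order was Defa24 at 21540, Defa30 at 9698, Lyz1 at 5034, Defa17 at 3108, Itln1 at 1985, Ang4 at 808, Mptx2 at 331 and Mmp7 at 170.0. Only 1 gene of the whole table had a higher mean TPM than Defa24. Across single mice the TPM ranges of Defa24 (14740 to 29180) and Defa30 (6279 to 13250) did not overlap, whereas those of Defa30 and Lyz1 (2921 to 7168) did, as did those of Lyz1 and Defa17 (2129 to 4629), Defa17 and Itln1 (1235 to 2924), Itln1 and Ang4 (483 to 1402), Ang4 and Mptx2 (108 to 714), and Mptx2 and Mmp7 (82.8 to 311). By these levels the RNA of Defa24 stood above the RNA of the enzyme that processes its product in every mouse.

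**Figure D1:**
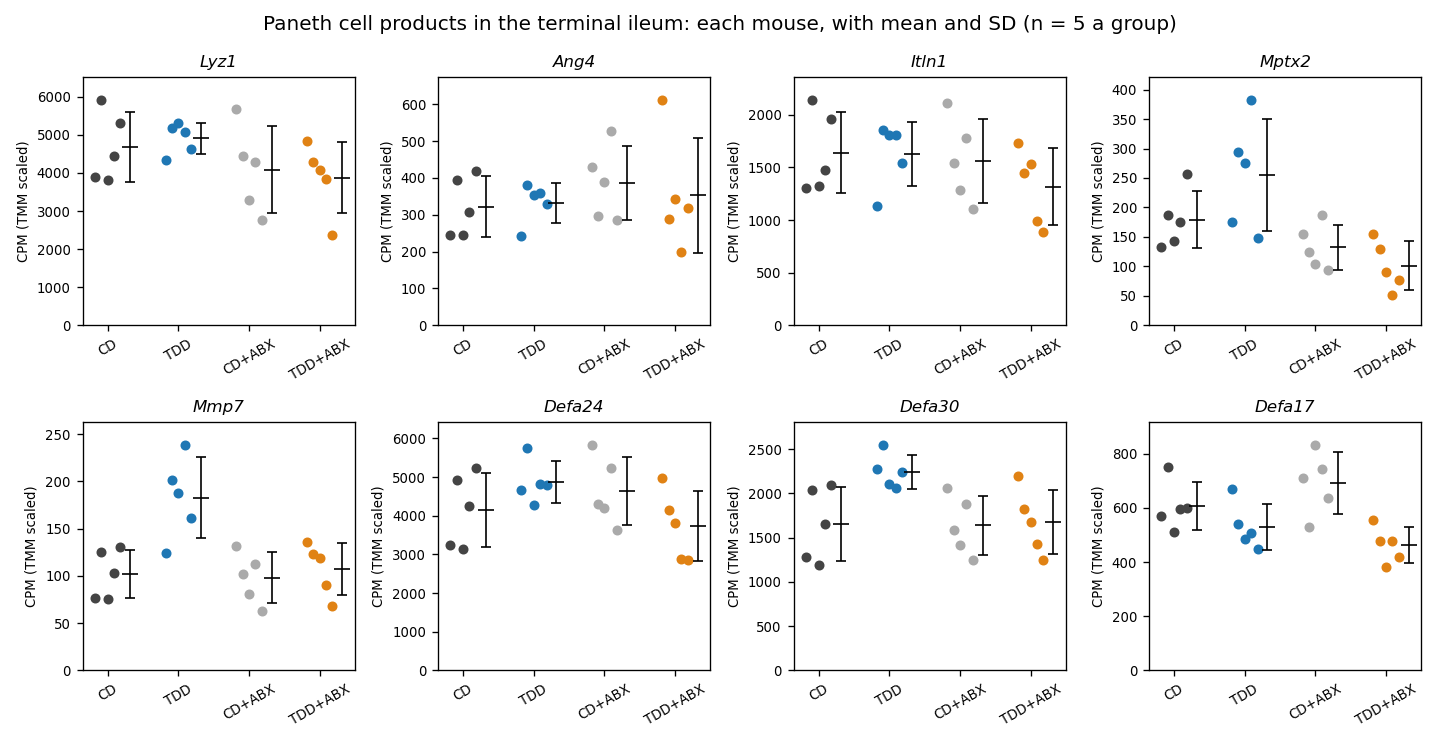
Level of each of the 8 Paneth cell products (CPM after TMM scaling, from 0) in every mouse, by group; dots are mice, and the bar beside them is the mean with its SD (n = 5). Mmp7 runs from 125 to 239 CPM in TDD mice and from 75.6 to 130 in CD mice, and Mptx2 from 51.5 to 155 in TDD+ABX mice and from 148 to 383 in TDD mice. These ranges overlap at their ends, and those of Lyz1, Ang4 and Itln1 overlap between all 4 groups.

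The first comparison asks what loss of dietary tryptophan did to these genes while the microbiota was intact. Among the members, Mmp7 rose on TDD, and the other 7 did not pass the test. Mmp7 stood at 76.4, 125, 75.6, 103 and 130 CPM in the 5 CD mice and at 125, 202, 188, 239 and 161 CPM in the 5 TDD mice. The lowest TDD mouse lay just within the CD range and the other 4 lay above it. The means were 102.0 ± 25.9 and 182.8 ± 42.9 CPM (SD, n = 5), a 1.79-fold difference (log2 fold change 0.84, standard error 0.22, q = 0.0166, where q is the Benjamini-Hochberg adjusted p of edgeR's quasi-likelihood test over 16306 genes). Of all genes tested, 14.4% passed q under 0.05 in this comparison in either direction. With the additional limit of a 2-fold change, which the study used, 1.84% of all genes were called and 0 of the 8 members. With an unadjusted p under 0.05 from edgeR there were 2 members, Mmp7 and Defa30. The share of all genes at that limit was not counted, and it cannot lie below 14.4%. The median log2 fold change of the 8 was 0.15, against 0.01 over all genes.

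Lyz1, Itln1 and Ang4 did not pass the test between the diets. Lyz1 was at 4679 ± 918 CPM on CD and 4908 ± 413 on TDD (SD, n = 5), with a 95% interval of the log2 fold change from -0.33 to 0.46. Itln1 was at 1639 ± 386 and 1628 ± 305 CPM (-0.45 to 0.43), and Ang4 at 322.2 ± 81.7 and 332.6 ± 54.2 CPM (-0.46 to 0.56). Mptx2 was at 133, 187, 143, 176 and 256 CPM in CD mice and at 175, 295, 275, 383 and 148 CPM in TDD mice. Of the TDD mice, 3 lay above all CD mice and 2 among them (log2 fold change 0.51, -0.10 to 1.12, q = 0.265, edgeR).

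The 3 defensin members did not pass either. Defa30 was at 1652 ± 416 CPM on CD and 2245 ± 191 on TDD (SD, n = 5; log2 fold change 0.44, 0.08 to 0.81, q = 0.0972, edgeR), and Defa24 at 4156 ± 952 and 4866 ± 548 CPM (0.23, -0.14 to 0.59, q = 0.42). Defa17 was lower on TDD, at 606.0 ± 88.8 and 529.9 ± 84.8 CPM (-0.19, -0.47 to 0.09, q = 0.366). For none of the 8 members were the CD and TDD mice fully separated, where 9.58% of all genes were.

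Under antibiotics the same change of diet lowered Defa17, and Mmp7 did not pass the test. Mmp7 was at 132, 102, 81.1, 113 and 63.1 CPM in CD+ABX mice and at 135, 123, 119, 89.9 and 67.9 CPM in TDD+ABX mice. These ranges overlapped almost wholly (log2 fold change 0.12, -0.34 to 0.59, q = 0.847, edgeR). Defa17 was at 711, 529, 833, 743 and 635 CPM in CD+ABX mice and at 557, 479, 383, 479 and 418 CPM in TDD+ABX mice. Only the highest TDD+ABX mouse reached into the CD+ABX range (log2 fold change -0.58, standard error 0.13, q = 0.0347, edgeR). It was the single member of 8 to pass, where 1.76% of all genes passed and 0.331% were also called at 2-fold. The call was close to the threshold. It held without each mouse of the SPF groups, and it was lost, with q up to 0.0964, when CD+ABX mouse 1, 3 or 4 was left out and when any TDD+ABX mouse but mouse 1 was. Of 12 other ways of processing it passed in 7. It did not pass in the fits of TPM, when only the compared groups were fitted, or with the replicate number of the labels as a block, with q up to 0.0983. Since 6.8% of the stretches of Defa17 are its own, this value also depends on how shared reads were divided.

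The other 6 members did not pass under antibiotics. The log2 fold change of TDD+ABX against CD+ABX was -0.39 for Mptx2 (-1 to 0.22), -0.31 for Defa24 (-0.68 to 0.05), -0.25 for Itln1 (-0.69 to 0.19), -0.13 for Ang4 (-0.64 to 0.38), -0.08 for Lyz1 (-0.47 to 0.32) and 0.03 for Defa30 (-0.33 to 0.40). Their median with Defa17 and Mmp7 was -0.19, against 0 over all genes, and 0 of 8 were fully separated, where 4.78% of all genes were.

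On the control diet, antibiotics changed no member at q under 0.05 or at an unadjusted p under 0.05 with edgeR, and no member passed with DESeq2 or limma-voom either, while 12.8% of all genes passed and 2.30% were called at 2-fold in this comparison. The log2 fold changes ran from -0.44 for Mptx2 (-1.05 to 0.18) to 0.26 for Ang4 (-0.25 to 0.77), with a median of -0.03. Lyz1 was at 4090 ± 1130 CPM in CD+ABX mice, Itln1 at 1564 ± 397, Mmp7 at 98.25 ± 27.0, Ang4 at 385.6 ± 100 and Mptx2 at 132.4 ± 38.4 (SD, n = 5). The 5 values of each overlapped those of the CD mice, as they did for all 8 members, where 9.74% of all genes were separated. Lyz2, the macrophage lysozyme that shares sequence with Lyz1, fell from 78.74 ± 16.2 to 43.54 ± 4.54 CPM (SD, n = 5; log2 fold change -0.86, q = 0.0242, edgeR, passed in 17 of 20 fits without 1 mouse), and the 7 macrophage markers together were at 213.6 to 278.3 CPM in CD and 147.3 to 167.8 CPM in CD+ABX mice. The part of Lyz2 in the Lyz1 counts was not tested; over the 20 mice its mean level was 60.2 TPM, against 5034 TPM for Lyz1.

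On the tryptophan-deficient diet, antibiotics lowered Mptx2 and Mmp7. Mptx2 stood at 155, 130, 91, 51.5 and 76.5 CPM in TDD+ABX mice, against 148 to 383 CPM in TDD mice. Of the TDD+ABX mice, 4 were below every TDD mouse, and the highest was above the lowest TDD mouse. The means were 255.0 ± 95 and 100.8 ± 41.6 CPM (SD, n = 5), so that the level was 2.53-fold lower (log2 fold change -1.34 ± 0.30 as standard error, with a q of 0.00673 from edgeR). This was the only member called at 2-fold in any comparison, where 1.67% of all genes were called in this one and 15.5% passed q under 0.05. Mmp7 fell as well, to 107.0 ± 27.5 CPM (SD, n = 5) from the 182.8 ± 42.9 CPM of TDD mice; the log2 fold change was -0.77 (standard error 0.22, q = 0.0265, edgeR), with only the highest TDD+ABX mouse, at 135 CPM, above the lowest TDD mouse. Its call was lost without TDD mouse 2, 3 or 4 or TDD+ABX mouse 4 or 5, with q between 0.0535 and 0.0721, whereas that of Mptx2 held without each mouse in turn.

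**Figure D2:**
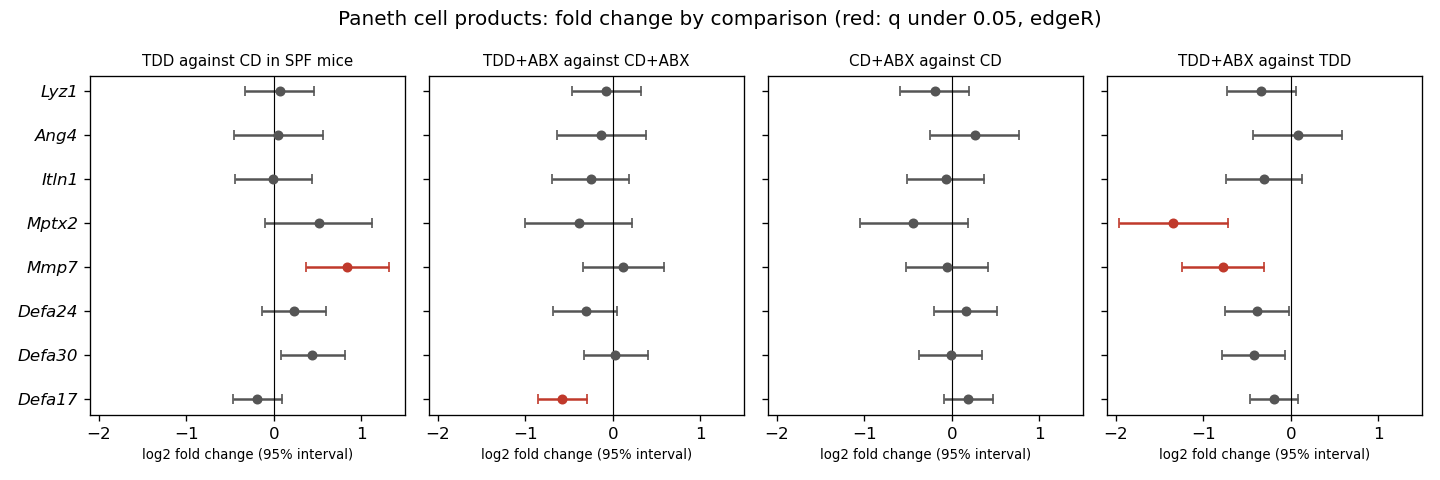
Log2 fold change (horizontal axis) of the 8 members in each of the 4 comparisons, with 95% intervals from edgeR; red marks q under 0.05. Mmp7 at 0.84 is the member marked for TDD against CD, Defa17 at -0.58 for TDD+ABX against CD+ABX, and Mptx2 at -1.34 and Mmp7 at -0.77 for TDD+ABX against TDD, and none is marked for CD+ABX against CD.

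The other 6 members did not pass in TDD+ABX against TDD mice. The log2 fold change against TDD was -0.42 for Defa30 (-0.79 to -0.06, q = 0.105, edgeR), -0.38 for Defa24 (-0.75 to -0.02, q = 0.143), -0.34 for Lyz1 (-0.73 to 0.06), -0.31 for Itln1 (-0.74 to 0.13), -0.19 for Defa17 (-0.47 to 0.08) and 0.08 for Ang4 (-0.43 to 0.59). The median over the 8 was -0.36, against -0.03 over all genes. No member separated the groups fully, where 11.0% of all genes did. Ang4 ran from 199.6 to 611.9 CPM within TDD+ABX mice.

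Whether the diet acted differently with and without antibiotics was tested as an interaction, and no member passed. The difference between the log2 fold changes of the diet was -0.90 for Mptx2 (-1.77 to -0.04, q = 0.526, edgeR) and -0.72 for Mmp7 (-1.38 to -0.06, q = 0.501). It was below 0 for all 8, with a median of -0.40, and 3 had an unadjusted p under 0.05, but the 8 genes were measured in the same mice and largely varied together. Of all genes 0.0245% were called and 0.0368% passed, and the share with an unadjusted p under 0.05 was not counted. A rise of Mmp7 in SPF mice that was particular to them was thus not shown. The comparisons of TDD with CD and of TDD+ABX with TDD share the TDD mice, so that high values in those mice enter both.

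Within groups, most members varied together from mouse to mouse. After each gene was centred on its group means, Pearson's r over the 20 mice ranged from 0.14 to 0.97 over the 28 pairs, with a median of 0.77. Itln1 and Mmp7 had r = 0.95, Lyz1 and Mmp7 0.91, and Defa24 and Defa30, which share most of their sequence, 0.97. Defa17 stood apart from the rest, with 0.14 with Itln1 and at most 0.46, with Defa30. All pairs share the same libraries and the same piece of tissue, so these values are descriptions. CD mice 1 and 3 were the lowest of their group for Lyz1, Itln1, Mmp7, Defa24 and Defa30, and CD mice 2 and 5 the highest, and TDD+ABX mice 4 and 5 were the lowest for Itln1, Mptx2, Mmp7 and Defa24.

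The genes outside the lists of Paneth cell genes whose levels followed the mean of the 8 members most closely, among 13988 candidates, were Pla2g2f (r = 0.90, a secreted phospholipase A2), Rab15 (0.87), Hpd (0.87), Fignl1 (0.86), Eif3e (0.85), A4gnt (0.85), Hopx (0.84), Gm5159 (0.84), Sh3bgrl2 (0.83) and Car8 (0.83). Each r is over the same 20 mice after centring on the groups, and without the 2 mice farthest from the median of the members' mean it lay between 0.78, for Hopx, and 0.87, for Pla2g2f. They are the highest of many, chosen by this measure.

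The other genes of the defensin locus were counted beside the 3 members. Of 29 alpha-defensin genes in the table, 25 were tested. On TDD in SPF mice 3 rose and 0 fell, with 13 higher and 12 lower in all and a median log2 fold change of 0.03. Of all genes 14.4% passed in this comparison, so that the 3 of 25 are a smaller share. They were Defa35 (0.98, q = 0.0102, edgeR), Defa36 (0.73, q = 0.00826) and, named after its value was seen, Defa41 (0.73, q = 0.0428), which passed in only 8 of the 20 fits that left out 1 mouse. Defa36 was at 1061, 1601, 1059, 1373 and 1765 CPM in CD mice and at 2223, 2558, 2095, 2310 and 2181 CPM in TDD mice, with no overlap. Defa35 was a minor gene of the family, at 9.53 ± 2.77 and 18.86 ± 4.99 CPM (SD, n = 5), and its groups did not overlap either.

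With antibiotics the diet lowered 3 of the 25 and raised 0, where 1.76% of all genes passed. Beside Defa17 these were Defa40, from 29.44 ± 4.28 to 15.28 ± 3.54 CPM (SD, n = 5; log2 fold change -0.95, q = 0.00491, edgeR), and Defa26, from 55.71 ± 9.73 to 31.27 ± 5.58 CPM (-0.83, q = 0.00491). For both of these the groups did not overlap. Antibiotics on CD moved none of the 25 at q under 0.05 with edgeR, and the other alpha-defensin genes included 3 with an unadjusted p under 0.05. On TDD, antibiotics lowered 7 and raised 0, which is 28.0%, where 15.5% of all genes passed, with 23 of 25 below 0 and a median of -0.42. Among them were Defa35 (-1.13, q = 0.00574, edgeR), Defa36 (-0.85, q = 0.00409), Defa39 (-0.81, q = 0.00877) and Defa5 (-0.64, q = 0.00858). By estimated level, the most abundant genes of the family beside the members did not pass in this comparison, namely Defa23, Defa3, Defa2 and Defa20. Of their stretches, 0% were their own for Defa23, Defa2 and Defa20, and 7.4% for Defa3. For Defa5 it was 0.3%, for Defa35 15.2% and for Defa39 44.0%. These levels thus rest to differing degrees on how shared reads were divided.

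**Figure D3:**
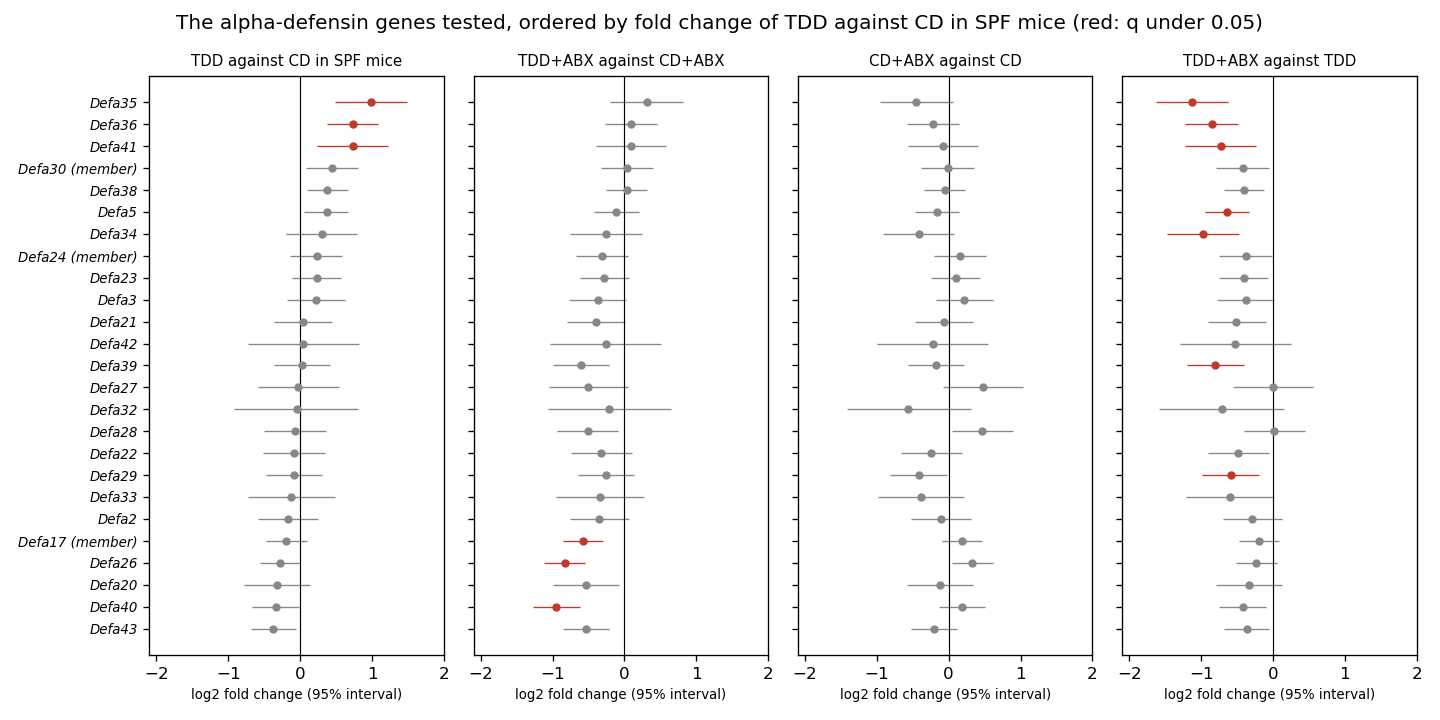
Log2 fold change with 95% intervals (horizontal axis) of the 25 alpha-defensin genes tested, 1 gene a line, in the 4 comparisons; red marks q under 0.05 and members are named as such. For TDD against CD in SPF mice 13 points lie to the right of 0 and 12 to the left, while for TDD+ABX against TDD 23 of 25 lie to the left.

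The summed level of the family, which does not depend on how reads were divided between its own genes, overlapped between all groups. These genes also share stretches with genes outside the sum, such as Defa-ps1, so it still depends on how those reads were divided. The sum was 25950 ± 6210 CPM in CD, 28110 ± 2480 in TDD, 25270 ± 4810 in CD+ABX and 20500 ± 4110 in TDD+ABX mice (SD, n = 5). The closest to a separation was TDD, from 25010 to 30660 CPM, against TDD+ABX, from 15200 to 25550 CPM. In TPM the order of the group means was the same, with 129400 ± 32200 in CD, 131900 ± 9260 in TDD, 124800 ± 25400 in CD+ABX and 102800 ± 17400 in TDD+ABX mice.

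While the sum overlapped, its estimated division between genes differed between the diets for some of them. The shares were examined after the levels had been seen, and they are given without a test. They rest on how shared reads were divided, and 70.4% of the stretches of Defa30 occur in other genes. The shares of a mouse add up to a whole, so they are not independent of each other. Defa30 held 6.38%, 6.33%, 6.21%, 6.28% and 6.57% of all alpha-defensin counts in CD mice, and 7.55%, 8.31%, 8.07%, 7.18% and 8.95% in TDD mice. It held 6.59%, 6.32%, 6.68%, 6.52% and 6.23% in CD+ABX mice, and 8.61%, 7.87%, 8.12%, 7.97% and 8.23% in TDD+ABX mice. Every mouse without dietary tryptophan was thus above every mouse on the control diet, with or without antibiotics. Antibiotics left the share in the same range on either diet. Defa30 is the sequence printed above that differs from Defa24 at 4 bases, and the share of Defa24 overlapped between the diets, at 15.25% to 16.45% in CD and 15.51% to 19.20% in TDD mice.

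Defa36 also took a larger share on TDD, at 4.96% to 5.54% in CD and 7.40% to 8.72% in TDD mice, and at 4.46% to 4.81% in CD+ABX and 5.81% to 6.33% in TDD+ABX mice. For this gene the share was lower with antibiotics on both diets, with no overlap. Of its stretches, 4.40% were its own. Of the 25 genes, 5 had a higher and 2 a lower share on TDD than on CD with no overlap in SPF mice, and 4 a higher and 2 a lower share under antibiotics. When the counts of every gene tested were likewise divided by the summed alpha-defensin counts, 2.81% and 3.71% of all genes were separated in these comparisons. The share was 2.24% between CD+ABX and CD and 30.1% between TDD+ABX and TDD. In CPM, without that division, these shares were 9.58%, 4.78%, 9.74% and 11.0%. The divisor is made of the alpha-defensin counts themselves, so it acts differently on these genes than on others. The shares of all genes are thus not a like background for the 25 genes. Besides Defa30, the genes with a larger share on TDD both with and without antibiotics were Defa35, Defa36 and Defa41. Those with a smaller share in both cases were Defa26 and Defa40. The share of Defa17 overlapped in all 4 comparisons, and its group means ran from 1.88% in TDD to 2.81% in CD+ABX mice.

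**Figure D4:**
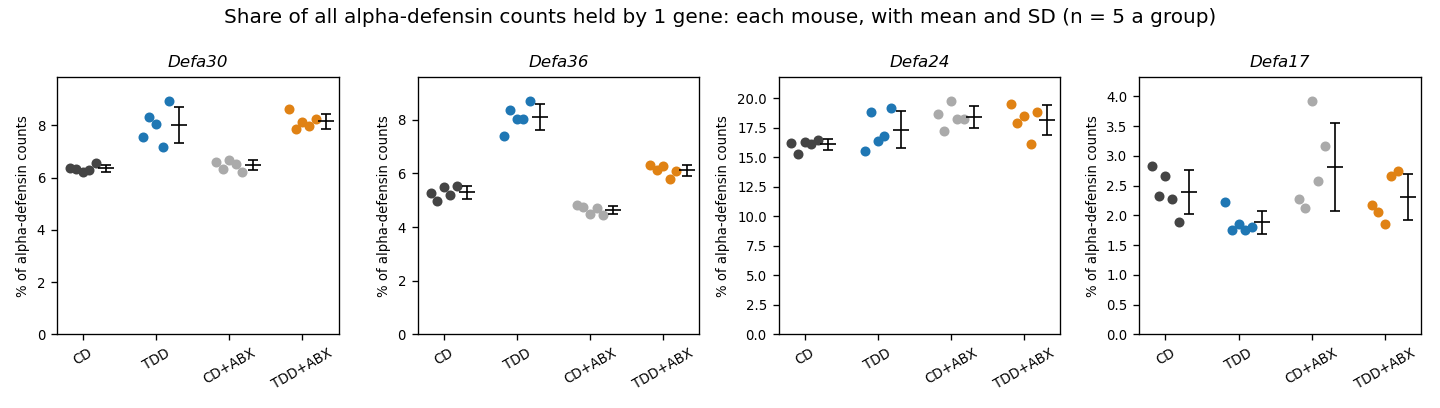
Share (in percent, from 0) of all alpha-defensin counts of a mouse that was held by Defa30, Defa36, Defa24 or Defa17; dots are mice, and the bar is the mean with its SD (n = 5). For Defa30 the CD and CD+ABX mice lie between 6.21% and 6.68%, and the TDD and TDD+ABX mice between 7.18% and 8.95%.

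Of the other listed genes of Paneth cells, secreted or not, 13 were tested, and they moved in both directions on TDD in SPF mice. There were 4 up and 2 down, which is 46.2%, a larger share than the 14.4% of all genes that passed, and the median log2 fold change was 0.31. This list was made with earlier results of these data known. Pla2g2a, a secreted phospholipase A2 whose gene is known to be disrupted in C57BL/6 mice, rose from 18.80 ± 2.59 to 39.23 ± 6.10 CPM (SD, n = 5; log2 fold change 1.06, q = 0.0106, edgeR), and its groups did not overlap. Dll4, a Notch ligand that Paneth cells present to stem cells and that endothelium also expresses, rose from 13.90 ± 1.95 to 23.49 ± 3.98 CPM (0.76, q = 0.000193), again with no overlap. Wnt3, the Wnt ligand of the crypt base, rose by 0.58 (q = 0.0362) but did not pass in the fits of TPM or in 7 of the 20 fits that left out 1 mouse. Pnliprp2, a lipase, rose by 0.91 (q = 0.0345) and passed in 13 of those 20 fits and not in the fits of TPM. Nupr1, a stress-induced nuclear protein, was lower on TDD with and without antibiotics (-0.88, q = 0.00261, and -1.01, q = 0.0069). Under antibiotics Clps, the colipase gene, was lower on TDD too (-0.58, q = 0.0378), though it did not pass in the fits of TPM and passed in 13 of those 20 fits, and 0 of the 13 rose. On TDD, antibiotics lowered Dll4 (-0.50, q = 0.00653, not passed in the fits of TPM), Rnase4, another ribonuclease (-0.62, q = 0.00141), and Pla2g2a (-0.80, q = 0.0447), though the last passed in only 4 of the 20 fits that left out 1 mouse.

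Mptx1, the neighbour in sequence of Mptx2, passed in 3 of the 4 comparisons of groups, and in the one that both passed, TDD+ABX against TDD, it rose where Mptx2 fell. Mptx1 was at 1.9 to 3.26 CPM in CD and at 0.502 to 1.33 CPM in TDD mice, a fall of the log2 level with no overlap (-1.42, q = 0.00335, edgeR). It was at 3.88 to 9.46 CPM in CD+ABX and 1.93 to 5.52 CPM in TDD+ABX mice, so that antibiotics raised it on CD (1.34, q = 0.00437) and on TDD (2.15, q = 0.000339), in both cases with no overlap. Under antibiotics its difference between the diets did not pass (-0.61, q = 0.301). The log2 fold changes of Mptx2 were 0.51 for TDD against CD, -0.44 for CD+ABX against CD, -1.34 for TDD+ABX against TDD and -0.39 for TDD+ABX against CD+ABX, of which only -1.34 passed. In the last of these comparisons both genes were lower on TDD, and neither passed. Mptx1 was far less abundant, with a mean of 6.96 TPM over the 20 mice against 331 TPM for Mptx2, and the 25.1% of stretches that Mptx2 shares with it can place reads in either gene.

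**Figure D5:**
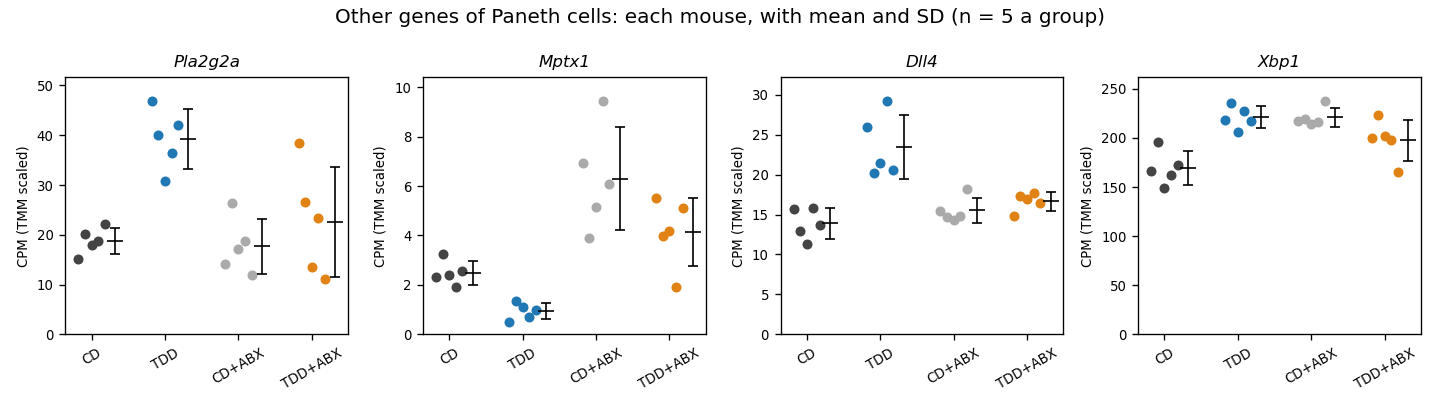
Level (CPM after TMM scaling, from 0) of Pla2g2a, Mptx1, Dll4 and Xbp1 in every mouse, by group; dots are mice, and the bar is the mean with its SD (n = 5). Pla2g2a and Dll4 are higher in TDD than in CD mice with no overlap, and Mptx1 is lowest in TDD mice, at 0.502 to 1.33 CPM.

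Of 18 genes that govern Paneth cell fate and granules, all tested, 2 rose and 1 fell on TDD in SPF mice, which is 16.7%, close to the 14.4% of all genes that passed. Xbp1, the transcription factor of the unfolded protein response that secretory cells need, was at 149.2 to 195.7 CPM in CD, 206.0 to 236.0 in TDD, 214.1 to 238.0 in CD+ABX and 165.2 to 223.4 in TDD+ABX mice. It rose on TDD (log2 fold change 0.38, q = 0.00218, edgeR) and with antibiotics on CD (0.38, q = 0.00283), with no overlap in either case, while the interaction did not pass (-0.54, q = 0.0625). Ern1, which encodes the kinase IRE1 alpha that activates Xbp1, fell on TDD (-0.38, q = 0.013), and Fgfr3, a growth factor receptor of the crypt, rose (0.43, q = 0.0139), though it did not pass in the fits of TPM, where the change was at its smallest 0.19. Antibiotics lowered Nod2, a sensor of bacterial muramyl dipeptide, on CD (-0.65, q = 0.0422, passed in 9 of 20 fits without 1 mouse and in 7 of 12 other ways of processing, with changes from -0.72 to -0.21) and Il4ra on TDD (-0.37, q = 0.0242, passed in 16 of 20 and not in the fits of TPM). Under antibiotics the diet changed 0 of the 18 at q under 0.05 with edgeR, and 4 had an unadjusted p under 0.05. Sox9, which Paneth cells need to form, did not pass in any comparison, with log2 fold changes from -0.41 to 0.29, though without TDD+ABX mouse 1 it passed for TDD+ABX against TDD (-0.58, q = 0.0467).

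Markers of the other cells in the tissue were counted and summed in the same way, and some of them passed in the comparisons in which members did. Of all genes, 14.4% passed q under 0.05 for TDD against CD in SPF mice, 12.8% for CD+ABX against CD and 15.5% for TDD+ABX against TDD. On TDD in SPF mice, where Mmp7 rose, 5 of 7 macrophage markers fell, with a summed level of 213.6 to 278.3 CPM in CD and 118.6 to 216.1 CPM in TDD mice. Antibiotics lowered all 7 on CD and 3 of the 7 on TDD, where the sum was 117.9 to 152.6 CPM in TDD+ABX mice. The 4 tuft cell markers tested all rose with antibiotics on CD, from a sum of 38.70 to 54.51 CPM to 55.59 to 108.0 CPM. On TDD 3 of the 4 rose, from 29.52 to 41.31 CPM to 45.12 to 74.50 CPM, and the sums did not overlap on either diet.

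The 8 goblet cell markers summed to 7386 to 9678 CPM in CD and 5883 to 7827 in TDD mice, with Muc2 counted 2 times by the table, and to 5723 to 9300 in CD+ABX and 6188 to 9757 in TDD+ABX mice. Among them Clca1, which encodes a protein secreted by goblet cells, fell on TDD in SPF mice from 1461 ± 167 to 741.6 ± 143 CPM with no overlap (SD, n = 5; log2 fold change -0.98, q = 6e-04, edgeR), and it rose with antibiotics on TDD (0.65, q = 0.0121). All 6 proliferation markers were lower on TDD in SPF mice, with a median of -0.30 and sums of 428.5 to 574.4 CPM in CD and 279.3 to 462.4 in TDD mice. Of these Mcm2, a helicase subunit of DNA replication, passed (-0.40, q = 0.0337, in 15 of 20 fits without 1 mouse), and with antibiotics on TDD all 6 were higher and 2 passed, Mcm2 and Pcna. The 6 stem cell markers ranged from 724.4 to 1061 CPM in CD and 564.8 to 878.1 in TDD mice, and from 439.5 to 922.9 and 615.3 to 932.6 CPM in the same diets with antibiotics, and none passed with edgeR, with at most 2 at an unadjusted p under 0.05 in a comparison.

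The summed 8 enterocyte markers overlapped between all groups, at 11190 to 30610 CPM over all mice, but 4 of the 8 were called at 2-fold with antibiotics on either diet. Of all genes, 2.30% were called at 2-fold with antibiotics on CD and 1.67% on TDD. On CD, Fabp2, a fatty acid binding protein, rose from 2848 ± 536 to 6547 ± 1720 CPM, the bile acid transporter Slc10a2 from 2.36 ± 1.02 to 39.45 ± 27.2 CPM and the bile acid binding protein Fabp6 from 1.17 ± 0.969 to 41.53 ± 59.4 CPM, while Apoa4, an apolipoprotein, fell from 6690 ± 3820 to 2192 ± 370 CPM (SD, n = 5). Fabp6 did not pass with limma-voom on either diet, and on TDD Apoa4 passed in 13 of 20 fits without 1 mouse and not in the fits of TPM. Of 6 enteroendocrine markers, Neurod1 rose (0.44, q = 0.0149, edgeR) and Gcg fell (-0.56, q = 0.0388) on TDD in SPF mice, neither passing in the fits of TPM, and Cck fell with antibiotics on CD (-0.79, q = 0.000876). The 5 B cell markers varied widely between mice, summing to 4.38 to 79.47 CPM in CD, 4.42 to 130.4 in TDD, 2.25 to 7.31 in CD+ABX and 3.56 to 87.40 in TDD+ABX mice. None of them passed with edgeR, although all 5 had an unadjusted p under 0.05 for CD+ABX against CD and 4 for TDD+ABX against CD+ABX. The 5 smooth muscle markers lay between 438.9 and 2311 CPM over all mice, with none at an unadjusted p under 0.05. The part of these cells in the changes of the members was not tested.

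The stretches before the start sites of Mmp7 and Mptx2, the members that moved by antibiotics on TDD, are shown for their position and motifs, 150 bases before each RefSeq start (GRCm38.p6), with TATAAA in capitals. For Mptx2 the RefSeq start, at 173277756, lies inside the GENCODE span given above, which begins on the minus strand at 173277777. The last bases of its stretch thus fall within that span, and its motif search is counted from the RefSeq start.
Mmp7, chr9:7691940-7692089, plus strand: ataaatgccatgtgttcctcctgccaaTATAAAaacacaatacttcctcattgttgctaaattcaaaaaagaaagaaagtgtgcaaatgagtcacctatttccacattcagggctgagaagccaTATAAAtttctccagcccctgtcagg
Mptx2, chr1:173277757-173277906, minus strand: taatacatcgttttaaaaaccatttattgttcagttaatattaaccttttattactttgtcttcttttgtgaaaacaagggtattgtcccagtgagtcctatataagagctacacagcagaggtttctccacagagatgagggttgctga
Mmp7 held TATAAA at -123 and -26 and the AP-1 motif TGAGTCA at -63, counted from the start, and Mptx2 held neither of them between 250 bases before and 50 bases after its start. Both strands were searched, for these exact letters only. Near variants, such as the tatataag in the Mptx2 stretch shown, were not counted, so a TATA box in Mptx2 is not excluded. A core bound by TCF/LEF factors, CTTTGA, was found in the same window of Mmp7 and not of Mptx2. In Mmp7 this core lay 5 bases after the start, on the opposite strand, and so outside the stretch shown. A motif bound by CDX factors, TTTATG, was found in neither gene. Over 32851 RefSeq promoters of the same length, 13.6% held TATAAA, 16.0% the TCF/LEF core, 11.9% the CDX motif and 5.20% the AP-1 motif. Of the 6 members with an entry, TATAAA occurred in 2, Mmp7 and Defa30. The TCF/LEF core occurred in 2, Mmp7 and Defa30, the AP-1 motif in 2, Mmp7 and Ang4, and the CDX motif in 1, Itln1.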

How the data were processed

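Terminal ileum RNA of 20 mice was analysed from files the authors had made with kallisto 0.44.0 on the GRCm38 transcriptome, per the methods and the submitters' processing notes. The deposited values are estimated counts for each gene, not normalized, in 1 table, and estimated counts with TPM for each transcript in a file a mouse. Kallisto divides reads that match several transcripts, which bears on the alpha-defensins. The word length of its index is not given in the sources used here, and 31 bases, its default, was used to count shared stretches. Muc2 held 2 times its transcript sum in the gene table. The members and gene lists were chosen with earlier results of these data known.

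Gene counts were rounded to whole numbers, scaled by TMM, and kept at 0.5 CPM or more in at least 1 mouse (16306 genes). The 4 groups were fitted together by edgeR's quasi-likelihood test (edgeR 4.0.16, R 4.3.3, no replicate block), with Benjamini-Hochberg adjustment over all genes. Calls needed q under 0.05, and at least 2-fold where stated, as in the methods, which name iDEP.91 but not its test. The share of all genes with an unadjusted p under 0.05 was not counted, so numbers of genes at that limit have no background beside them. Intervals are 95%, and fold changes pass through edgeR's small prior count. The labels number the mice and give no litter or cage, so p-values measure the spread between mice of 1 experiment. TPM of a gene is the sum over its transcripts. Alternatives used DESeq2 1.42.0, limma 3.58.1, other scaling, filters, samples and units. Named genes were the 8 members, at most 6 per other list by smallest q and the 4 alpha-defensins with the highest TPM, and genes outside this rule were named after their values were seen. The test was tried on simulated data first. Depth, 36676963 to 58662617 counts per mouse, gave each member at least 2590 estimated counts in every mouse, so the spread between mice and not counting error limits these values. For the alpha-defensins the division of shared reads limits them as well.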

Additional observations from a re-analysis of the deposited data

How the results depend on the processing

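The number of the 8 members called at q under 0.05 and 2-fold was 0, 0, 0, 1 and 0 in the 5 comparisons under every alternative run, and Mptx2 in TDD+ABX against TDD was that 1 in each. The number that passed q under 0.05 alone moved. For TDD against CD in SPF mice it was 1, and 0 with limma on log2(TPM + 1) without a filter on low values, an alternative added after seeing the data, and 1 to 2 when single mice were left out, with Defa30 passing as well without CD mouse 2. For TDD+ABX against CD+ABX it was 1, and 0 when only the compared groups were fitted, with limma on log2(TPM + 1), with limma on log2(TPM + 0.1) and with limma on log2(TPM + 1) without a filter, and 0 to 1 when single mice were left out. For TDD+ABX against TDD it was 2, and 1 with limma on log2(TPM + 1) without a filter, and 1 to 2 when single mice were left out. The causes were not tested.

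With the replicate number of the labels as a block, the number that passed for TDD+ABX against CD+ABX was 0, with Defa17 at -0.59 (q = 0.0538, edgeR), and it was unchanged for the other comparisons. Of the other genes named, Defa41 (0.73, q = 0.0746) and Pnliprp2 (0.92, q = 0.0675) on TDD in SPF mice and Clps for TDD+ABX against CD+ABX (-0.59, q = 0.0742) did not pass with the block, nor did the markers Mcm2 (-0.40, q = 0.0588) and Gcg (-0.55) on TDD in SPF mice or Defa41 (-0.72, q = 0.0709), Mcm2 (0.36, q = 0.0751), Apoa4 (-1.12, q = 0.0553) and Avil (0.62, q = 0.0578) for TDD+ABX against TDD. Deviations of same-numbered mice from their group means correlated from -0.36 to 0.25, so the numbers are not taken to pair the mice.

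Small log2 fold changes that did not pass changed sign under some alternatives. With limma on TPM, Ang4 on TDD in SPF mice was -0.01, Defa39 -0.06 and Il4ra -0.01, Ern1 for TDD+ABX against TDD was 0.09 or 0.10, Fgfr3 was 0.09 there and 0.05 in the interaction, and with limma-voom Defa30 for CD+ABX against CD was 0.01. Single mice left out gave, for TDD against CD in SPF mice, Ang4 from -0.04 to 0.15, Defa39 from -0.06 to 0.10, Il4ra from -0.06 to 0.07 and Itln1 from -0.08 to 0.10. For TDD+ABX against CD+ABX they gave Ang4 from -0.43 to 0.02, Defa30 from -0.08 to 0.13, Defa36 from -0.01 to 0.20, Defa41 from -0.02 to 0.22, Lyz1 from -0.19 to 0.07 and Nod2 from -0.34 to 0.01. For CD+ABX against CD they gave Defa2 from -0.21 to 0.01, Defa20 from -0.23 to 0.02, Defa30 from -0.11 to 0.09, Defa41 from -0.20 to 0.12, Sox9 from -0.09 to 0.13, Il4ra from -0.01 to 0.12, Itln1 from -0.20 to 0.05, Mmp7 from -0.18 to 0.07 and Pla2g2a from -0.28 to 0.02. For TDD+ABX against TDD they gave Ang4 from -0.20 to 0.25, Ern1 from -0.09 to 0.03, Fgfr3 from -0.13 to 0.02 and Pnliprp2 from -0.10 to 0.28, and for the interaction Lyz1 from -0.26 to 0.01, Lyz2 from -0.20 to 0.12 (-0.01 with the block) and Nupr1 from -0.21 to 0.05. Among the marker genes, limma gave Fabp6 for TDD against CD in SPF mice -0.28 with limma-voom and -0.11 or -0.20 on TPM and, for the interaction, 0.08 with limma-voom and 0.02 or 0.12 on TPM. On TPM it gave Slc10a2 for TDD+ABX against CD+ABX 0.03, Cd68 for TDD+ABX against TDD 0.09 or 0.10, and Pou2f3 for the interaction 0.04 or 0.11, and the block gave Fabp6 for TDD+ABX against CD+ABX 0.03. Single mice left out gave Fabp2 from -0.01 to 0.19, Fabp6 from -0.69 to 0.58 and Mrc1 from -0.06 to 0.06 for TDD against CD in SPF mice. They gave Fabp6 from -1.47 to 0.33, Slc10a2 from -0.32 to 0.41 and Gcg from -0.03 to 0.17 for TDD+ABX against CD+ABX, and Clca1 from -0.10 to 0.14 for CD+ABX against CD. For the interaction they gave Fabp2 from -0.08 to 0.19, Fabp6 from -1.63 to 0.14, Pou2f3 from -0.15 to 0.15, Trpm5 from -0.25 to 0.03 and C1qa from -0.02 to 0.11. Group levels of the members moved by less than the spread between mice with unscaled CPM and with TPM.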
